A study of Mus musculus with 15 samples.

Results

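The expression of 9 genes that mark monocytes and macrophages in general was followed across the livers of 15 mice: Ccr2, Cx3cr1, Csf1r, Adgre1, Itgam, Cd14, Fcgr1, Ctss and Lyz2. They were chosen by name, and all 9 were found among the 19938 genes that the arrays measured with a probe set of a single gene symbol. Each of the 9 has 1 such probe set. A further 3 probe sets list Itgam together with another gene, Rpl35, and were not used.

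Monocytes are blood cells that leave the bone marrow and enter inflamed tissue, where they can become macrophages. The healthy liver already holds its own macrophages, the Kupffer cells, which sit in the sinusoids and make the genes Clec4f and Timd4 that arriving monocytes lack at first. General macrophage genes such as Adgre1, Csf1r, Lyz2 and Ctss are made by both kinds of cell, whereas Ccr2 is best known from inflammatory monocytes and Cx3cr1 from patrolling monocytes and the macrophages that descend from them. In whole liver, more cells of a type and more RNA per cell cannot be told apart.

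The study asked how Jnk1 and Jnk2, which encode the stress kinases JNK1 and JNK2, act in livers whose hepatocytes lack NEMO (gene Ikbkg), the regulatory subunit of the kinase complex that activates NF-kB. RNA from each liver was hybridised to 1 Affymetrix whole-transcript array, with 3 mice in each of 5 groups. All mice were 8 weeks old, of C57BL/6 background and male per the labels, and each array carries its own mouse number. NEMO/Jnk1 DKO mice lacked Jnk1 in every cell (global Jnk1-/-) and NEMO in hepatocytes (NEMOΔhepa), where an Alb-cre transgene cuts out the loxP-flanked gene. NEMO/Jnk2 DKO mice lacked Jnk2 in every cell (global Jnk2-/-) and NEMO in hepatocytes. Jnk1 KO and Jnk2 KO mice were global Jnk1-/- and global Jnk2-/- animals with intact NEMO. The WT mice carried the floxed NEMO gene (NEMO floxed/floxed) with both kinases intact. Monocytes and macrophages of the double knockouts therefore kept NEMO but lacked the kinase. Mice lacking only NEMO were not analysed here, so each effect of NEMO loss was measured on a background without one of the kinases.

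The values are log2 expression after RMA normalization, and array medians lay between 4.26 and 4.38. There were 2 arrays that went against their labels and are called doubted below: the one labelled Jnk1 KO replicate 1 and the one labelled Jnk2 KO replicate 3. On the first principal component, computed without the marker genes and carrying 40.3% of the variance, they lay at 33.4, above every double knockout, and 18.2, among the double knockouts, against -25.6 to -14.8 in the other 7 arrays with intact NEMO. Their Ikbkg levels were 6.75 and 6.24, inside the range of 6.18 to 6.85 of the double knockouts and below the 7.03 to 7.41 of those 7 arrays. Mapk9, the gene of JNK2, was low in all 6 arrays labelled Jnk2-null (2.39 to 3.28), against 7.41 to 7.67 elsewhere. Mapk8, the gene of JNK1, lay between 5.87 and 6.23 in 5 of the 6 arrays labelled Jnk1-null and at 6.53 in NEMO/Jnk1 DKO replicate 3, against 6.58 to 7.03 elsewhere. A further conflict was that 3 arrays labelled male (NEMO/Jnk1 DKO replicates 1 and 2 and the doubted Jnk1 KO array) had high Xist, from 8.68 to 9.17, and low Y-linked genes. Each comparison is therefore given as labelled and without the 2 doubted arrays. Since Mmp12, a macrophage gene, was among the genes that set these arrays apart, the second version describes the remaining 13 arrays only. Its p-values, for the markers and for the other genes named below, are not independent of the choice of arrays.

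Against WT, all 9 markers were higher in both double knockouts, in every array. The median of the 9 log2 differences from WT was 1.02 for the first of these genotypes (NEMO/Jnk1 DKO) and 1.14 for NEMO/Jnk2 DKO, against -0.04 over all genes in each comparison. Lyz2 and Ctss, 2 products of the macrophage lysosome and granule, had the 2 largest means above WT in NEMO/Jnk2 DKO livers (3.14-fold and 3.27-fold), and Itgam the smallest (1.26-fold). All 9 markers had every NEMO/Jnk1 DKO array above every WT array, as 11.5% of all genes did. All 9 also had every NEMO/Jnk2 DKO array above every WT array, as 11.8% of all genes did.

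As labelled, each comparison was tested with limma's moderated test over all 19938 genes, with a Benjamini-Hochberg adjusted p under 0.05 as the threshold. It called 0 markers higher in NEMO/Jnk1 DKO than in WT, where 0.0301% of all genes were called higher. An unadjusted p under 0.05 was reached there by 7 of the 9 markers, and by 3256 of the 19938 genes in either direction. In NEMO/Jnk2 DKO against WT it called Adgre1, 1 of 9, where 0.873% of all genes were called higher. Against the single knockouts it called 0 markers on either background. The background was 0% of all genes called higher in NEMO/Jnk1 DKO against Jnk1 KO and 0.00502% in NEMO/Jnk2 DKO against Jnk2 KO. An unadjusted p under 0.05 was reached by 3 markers in each, and by 908 and 1578 of the 19938 genes in either direction.

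Without the 2 doubted arrays, 8 of 9 markers were called higher in NEMO/Jnk1 DKO against WT (background 4.92%), all but Csf1r. In NEMO/Jnk2 DKO against WT 8 of 9 were called higher (background 5.75%), all but Itgam. Neither comparison holds a doubted array, so the differences from WT were the same as in the fit as labelled. Only the spread, estimated over all arrays of the fit, and its degrees of freedom changed. In NEMO/Jnk1 DKO against Jnk1 KO 5 markers rose (background 4.05%): Ccr2, Adgre1, Itgam, Fcgr1 and Ctss. In NEMO/Jnk2 DKO against Jnk2 KO 5 also rose (background 3.88%), of which Ccr2, Fcgr1 and Ctss were called on both backgrounds: Ccr2, Cx3cr1, Fcgr1, Ctss and Lyz2. The median log2 difference of the 9 markers was 0.91 on the Jnk1-null background and 0.92 on the Jnk2-null background, against -0.01 over all genes in each. The 2 comparisons with WT share their WT arrays.

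**Figure D1:**
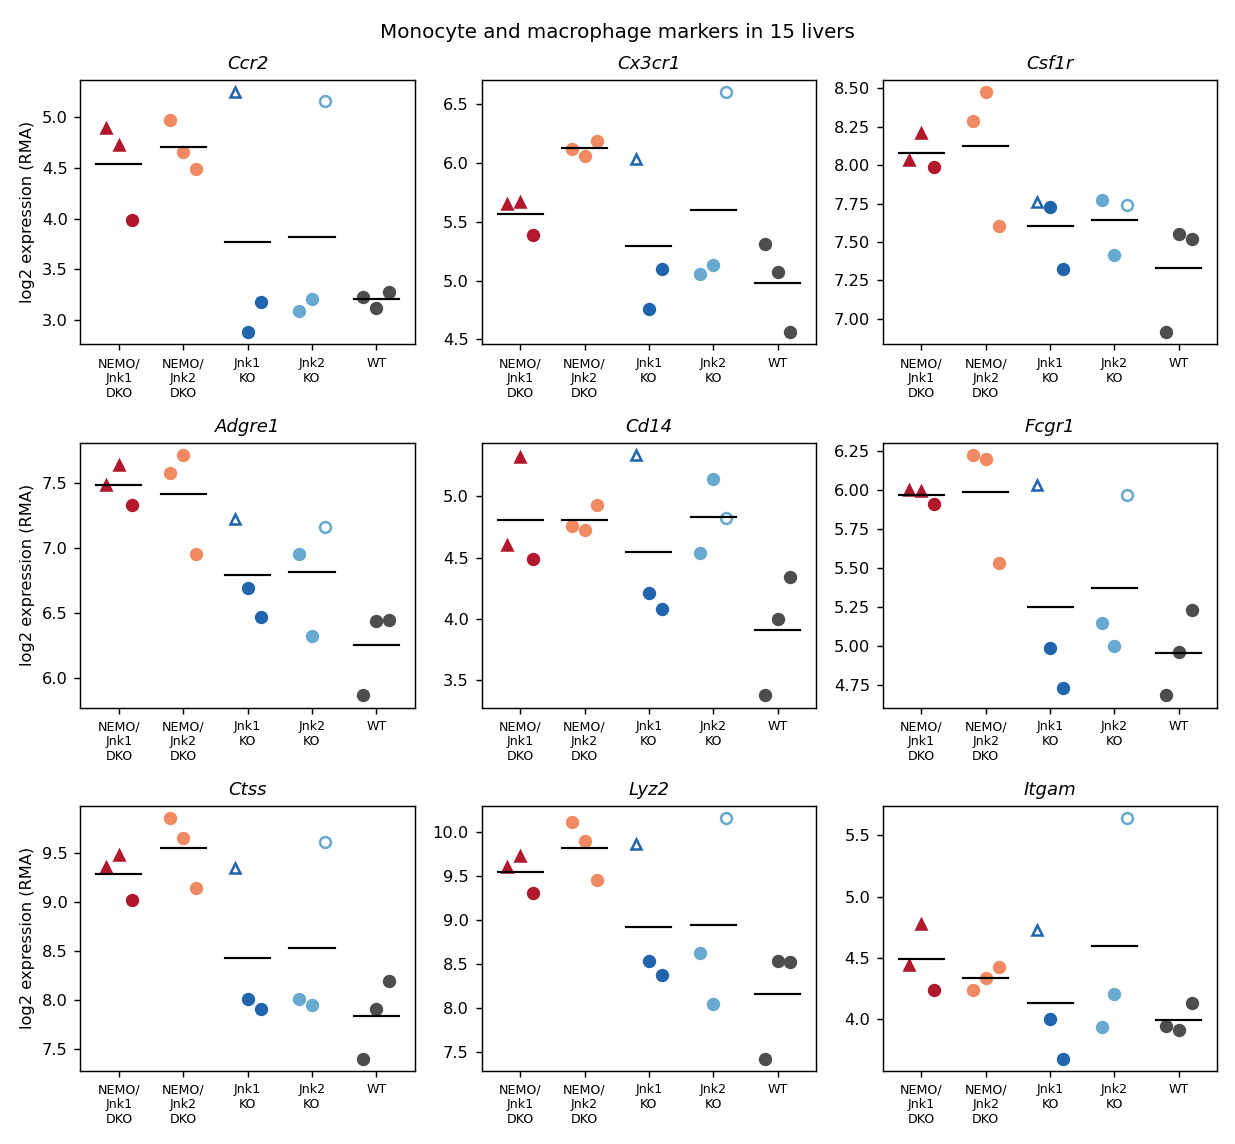
Log2 expression of the 9 markers (vertical axes, 1 panel a gene) in each of 15 livers, grouped by genotype (horizontal axes). Each point is 1 array, black bars are group means, open points are the 2 doubted arrays and triangles the 3 arrays with high Xist. The 6 double-knockout arrays lie above the 3 WT arrays in every panel, and the open points lie near or above the double knockouts in most.

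The differences also moved with the arrays of high Xist. NEMO/Jnk1 DKO replicate 3, the array of that group without high Xist, was the lowest of its group for all 9 markers. By its Mapk8 level of 6.53 this array was also the least clear of the Jnk1-null arrays. It still lay above every WT array and above Jnk1 KO replicates 2 and 3 for all 9. These counts for 1 array are given without the share over all genes. The 9 markers also moved together over the arrays (median r of 0.76), so they are not 9 separate observations. With high Xist as a term and the doubted arrays left out, the estimate of NEMO/Jnk1 DKO rests on replicate 3 alone. The median difference of this array was 0.78 from WT and 0.75 from Jnk1 KO. Without the term, the medians of NEMO/Jnk1 DKO were 1.02 and 0.91. With 1 array left in the group, no count of called markers is given for these comparisons. The calls of NEMO/Jnk1 DKO against WT and Jnk1 KO were therefore not shown to hold with that term. With that term 8 markers were called in NEMO/Jnk2 DKO against WT (background 5.70%). The part of sex in the markers' levels was not tested, since after the doubted arrays are left out all arrays with high Xist belong to 1 group.

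The start regions of 6 of the 9 genes were held in the RefSeq promoter table (build GRCm38.p6). The 250 bases before each start were searched on both strands for 6 short motifs of factors known from macrophages. PU.1, encoded by Spi1, is the ETS-family factor that myeloid cells need to form. Its core GAGGAA lay in 3 of the 6 promoters (Ctss, Fcgr1 and Itgam) and in 23.3% of 32851 promoters of the genome. The ETS motif AGGAAGT lay in Fcgr1 and Lyz2, and in 7.69% of all promoters. A match to the interferon response element lay in Ctss, and in 2.98% of all. No match was found for the C/EBP motif TTGCNNAAT (2.11% of all promoters), the NF-kB motif (1.41%) or the AP-1 motif TGANTCA (6.75%). A match is a description of the letters only. The stretches from 20 bases before the first match up to the start are shown for the 4 genes that hold a match, with the matches in capitals and each written in the direction of its gene.
Ctss, chr3:95526602-95526785, plus strand: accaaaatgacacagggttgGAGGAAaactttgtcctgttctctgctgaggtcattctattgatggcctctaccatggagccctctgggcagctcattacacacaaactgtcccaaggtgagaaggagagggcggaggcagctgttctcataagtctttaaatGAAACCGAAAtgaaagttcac
Fcgr1, chr3:96293970-96294050, minus strand: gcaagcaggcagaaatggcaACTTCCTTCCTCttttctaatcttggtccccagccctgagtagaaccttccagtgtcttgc
Itgam, chr7:128062536-128062639, plus strand: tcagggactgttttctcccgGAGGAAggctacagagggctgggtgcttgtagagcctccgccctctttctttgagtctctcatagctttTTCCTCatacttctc
Lyz2, chr10:117282273-117282392, minus strand: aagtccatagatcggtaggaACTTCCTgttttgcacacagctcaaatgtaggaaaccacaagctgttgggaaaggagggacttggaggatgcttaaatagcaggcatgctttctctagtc
In Fcgr1 the ETS match, which begins at -61, and the PU.1 match, which begins at -55, share 1 base. In Itgam the second PU.1 match begins at -15, and in Ctss the interferon element begins at -21.

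Ccr2 (chromosome 9) encodes the receptor for CCL2, through which inflammatory monocytes leave the marrow and enter tissue. Its log2 levels were 4.90, 4.72 and 3.99 in NEMO/Jnk1 DKO livers and 4.97, 4.66 and 4.49 in NEMO/Jnk2 DKO livers. They were 5.25 (doubted), 2.88 and 3.18 in Jnk1 KO, 3.09, 3.21 and 5.16 (doubted) in Jnk2 KO, and 3.23, 3.12 and 3.27 in WT. The 2 doubted arrays were the highest of all 15, and every double knockout lay above each of the other 7 arrays with intact NEMO. As labelled, the difference was 0.77 (SE 0.57, adjusted p = 0.962) in NEMO/Jnk1 DKO against Jnk1 KO and 0.89 (SE 0.57, adjusted p = 0.738) in NEMO/Jnk2 DKO against Jnk2 KO, both by limma. Ccr2 rose, once the doubted arrays were left out, by 1.51 (SE 0.22, limma adjusted p = 0.00145) on the Jnk1-null background and by 1.56 (SE 0.22, limma adjusted p = 0.00127) on the Jnk2-null background, close to 2.84-fold and 2.95-fold. Leaving out the doubted arrays thus brought the SE to 0.22, against 0.57 with them.

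Cx3cr1 (chromosome 9) encodes the receptor for fractalkine, which holds patrolling monocytes to the vessel wall. Its levels were 5.65, 5.67 and 5.39 in NEMO/Jnk1 DKO and 6.12, 6.06 and 6.19 in NEMO/Jnk2 DKO. They were 6.03 (doubted), 4.76 and 5.10 in Jnk1 KO, 5.06, 5.13 and 6.61 (doubted) in Jnk2 KO, and 5.31, 5.07 and 4.56 in WT. The doubted Jnk2 KO array was the highest of all, and the other NEMO-intact arrays stayed below every double knockout. Cx3cr1 rose in NEMO/Jnk2 DKO without the doubted arrays, by 1.03 against Jnk2 KO (SE 0.18, limma adjusted p = 0.00474) and by 1.14 against WT (SE 0.16, limma adjusted p = 0.000606). In NEMO/Jnk1 DKO the difference was 0.64 against Jnk1 KO (SE 0.18, limma adjusted p = 0.0605) and 0.59 against WT (SE 0.16, limma adjusted p = 0.041).

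Of the ligands, 5 chemokine genes of CCR2 and CX3CR1 were listed and measured, and as labelled 0 passed on either background. Without the doubted arrays, Ccl2, the main CCR2 ligand, rose by 0.93 (SE 0.16, limma adjusted p = 0.0036) in NEMO/Jnk1 DKO against Jnk1 KO, and was the only one of the 5 to pass there. In NEMO/Jnk2 DKO against Jnk2 KO 0 of 5 passed; Ccl2 differed by 0.23 (SE 0.16, limma adjusted p = 0.515) and Cx3cl1, which encodes fractalkine, by 0.63 (SE 0.19, limma adjusted p = 0.0674). Ccl2 levels were low throughout, with means of 4.63 in NEMO/Jnk1 DKO, 4.26 in NEMO/Jnk2 DKO, 3.96 in Jnk1 KO, 4.09 in Jnk2 KO and 4.02 in WT.

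Csf1r (chromosome 18) encodes the receptor for the growth factor CSF1, on which macrophages depend for survival. Its levels were 8.03, 8.21 and 7.99 in NEMO/Jnk1 DKO and 8.29, 8.48 and 7.60 in NEMO/Jnk2 DKO. They were 7.76 (doubted), 7.73 and 7.33 in Jnk1 KO, 7.78, 7.42 and 7.74 (doubted) in Jnk2 KO, and 6.91, 7.55 and 7.52 in WT. Unlike for Ccr2, the doubted arrays lay within the range of the other single knockouts or at its edge, and NEMO/Jnk2 DKO replicate 3 fell among the single knockouts. Csf1r passed in 1 comparison only, NEMO/Jnk2 DKO against WT without the doubted arrays (0.80, SE 0.22, limma adjusted p = 0.0359). It differed by 0.75 in NEMO/Jnk1 DKO against WT (SE 0.22, limma adjusted p = 0.0564). Against the single knockouts the differences without the doubted arrays were 0.55 and 0.53 (SE 0.25, limma adjusted p = 0.28 and 0.284) on the Jnk1-null and Jnk2-null backgrounds. Of 8 measured genes of the CSF1R and GM-CSF receptor axis, 0 passed as labelled on either background. Leaving these arrays out, 3 rose in NEMO/Jnk1 DKO against Jnk1 KO, led by Tyrobp (1.10, limma adjusted p = 0.00192), the adaptor DAP12, and Csf2rb2 (0.96, limma adjusted p = 0.03), a receptor chain. Against Jnk2 KO, 2 rose in NEMO/Jnk2 DKO, Tyrobp (0.82, limma adjusted p = 0.0118) and the phosphatase gene Ptpn6 (0.50, limma adjusted p = 0.0349).

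Adgre1 (chromosome 17) encodes the surface antigen most used to stain mouse macrophages. Its levels were 7.49, 7.64 and 7.33 in NEMO/Jnk1 DKO and 7.58, 7.72 and 6.95 in NEMO/Jnk2 DKO. They were 7.23 (doubted), 6.69 and 6.47 in Jnk1 KO, 6.95, 6.33 and 7.16 (doubted) in Jnk2 KO, and 5.86, 6.44 and 6.45 in WT. It was the marker that passed as labelled, rising by 1.17 (SE 0.26, limma adjusted p = 0.0338) in NEMO/Jnk2 DKO against WT, 2.24-fold. That call was lost when any 1 WT array, or NEMO/Jnk2 DKO replicate 1 or 2, was left out. In NEMO/Jnk1 DKO against WT the difference was 1.24 (SE 0.26, limma adjusted p = 0.0818) as labelled. Adgre1 rose without the doubted arrays by 0.91 (SE 0.24, limma adjusted p = 0.0483) against Jnk1 KO, and differed by 0.78 (SE 0.24, limma adjusted p = 0.0863) in NEMO/Jnk2 DKO against Jnk2 KO. Adgre1 and Csf1r were the 2 markers whose NEMO/Jnk1 DKO arrays lay above all Jnk1 KO arrays as labelled, 2 of 9 against 2.52% of all genes.

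Itgam (chromosome 7) encodes CD11b, the integrin chain of monocytes, neutrophils and newly arrived macrophages, which Kupffer cells carry at a low level. Its levels were 4.45, 4.78 and 4.24 in NEMO/Jnk1 DKO and 4.24, 4.34 and 4.43 in NEMO/Jnk2 DKO. They were 4.73 (doubted), 4.01 and 3.68 in Jnk1 KO, 3.94, 4.21 and 5.64 (doubted) in Jnk2 KO, and 3.95, 3.91 and 4.13 in WT. The doubted Jnk2 KO array stood above all others, and without it and the other doubted array every double knockout lay above every NEMO-intact array, by as little as 0.03. Itgam rose by 0.65 (SE 0.16, limma adjusted p = 0.0293) in NEMO/Jnk1 DKO against Jnk1 KO without the doubted arrays. In NEMO/Jnk2 DKO against Jnk2 KO its difference was -0.26 as labelled (SE 0.35, limma adjusted p = 0.902) and 0.26 without the doubted arrays (SE 0.16, limma adjusted p = 0.436), so that 1 array set its sign. Of 8 partners and ligands of CD11b, 0 passed as labelled on either background. With them left out, 3 rose on the Jnk1-null and 2 on the Jnk2-null background. Itgb2, which encodes CD18, the chain that pairs with CD11b, rose by 1.46 (limma adjusted p = 0.00121) and 1.36 (limma adjusted p = 0.00213), and Itgax, the gene of CD11c, by 0.99 (limma adjusted p = 0.00547) and 1.35 (limma adjusted p = 0.00089) on the Jnk1-null and Jnk2-null backgrounds.

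Cd14 (chromosome 18) encodes the co-receptor that hands bacterial lipopolysaccharide to TLR4. Its levels were 4.60, 5.32 and 4.49 in NEMO/Jnk1 DKO and 4.76, 4.72 and 4.93 in NEMO/Jnk2 DKO. They were 5.34 (doubted), 4.21 and 4.08 in Jnk1 KO, 4.54, 5.14 and 4.83 (doubted) in Jnk2 KO, and 3.38, 4.005 and 4.34 in WT. Here the Jnk2 KO arrays, doubted or not, overlapped the NEMO/Jnk2 DKO arrays, and the difference between these groups was -0.03 with and without the doubted array (limma adjusted p = 0.99 and 0.978). The 95% interval of that difference without the doubted arrays ran from -0.63 to 0.56. Against WT, Cd14 passed without the doubted arrays in both double knockouts, by 0.89 in NEMO/Jnk1 DKO (limma adjusted p = 0.0427) and 0.90 in NEMO/Jnk2 DKO (limma adjusted p = 0.0347; SE 0.25 in each). Of 8 measured genes of the CD14 and TLR4 axis, 0 passed as labelled on either background and 1 rose on each without the doubted arrays. It was Cd180, a TLR-like receptor gene of B cells and myeloid cells, with 0.93 (limma adjusted p = 0.0166) in NEMO/Jnk1 DKO against Jnk1 KO and 1.34 (limma adjusted p = 0.00193) in NEMO/Jnk2 DKO against Jnk2 KO.

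Fcgr1 (chromosome 3) encodes CD64, the high-affinity receptor for IgG, a surface marker of macrophages. Its levels were 6.00, 6.00 and 5.91 in NEMO/Jnk1 DKO and 6.23, 6.20 and 5.53 in NEMO/Jnk2 DKO. They were 6.03 (doubted), 4.99 and 4.73 in Jnk1 KO, 5.15, 5.00 and 5.97 (doubted) in Jnk2 KO, and 4.68, 4.96 and 5.23 in WT. The double knockouts and the doubted arrays lay above the other 7 arrays with no overlap. Fcgr1 rose without the doubted arrays in all 4 comparisons, by 1.11 against Jnk1 KO (SE 0.20, limma adjusted p = 0.0048) and by 0.92 against Jnk2 KO (SE 0.20, limma adjusted p = 0.015) in the matching double knockouts. Of 5 measured Fc gamma receptor genes and partners, 0 passed as labelled on either background, and the same 2 rose on both without the doubted arrays. Fcgr4, another IgG receptor, rose by 1.14 (limma adjusted p = 0.0242) and 0.98 (limma adjusted p = 0.0465), and Fcer1g, the signalling chain that CD64 needs, by 0.95 (limma adjusted p = 0.02) and 1.04 (limma adjusted p = 0.0111) on the Jnk1-null and Jnk2-null backgrounds.

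Ctss (chromosome 3) encodes cathepsin S, a lysosomal protease of antigen-presenting cells. Its levels were 9.36, 9.48 and 9.02 in NEMO/Jnk1 DKO and 9.85, 9.65 and 9.14 in NEMO/Jnk2 DKO. They were 9.35 (doubted), 8.01 and 7.91 in Jnk1 KO, 8.02, 7.95 and 9.61 (doubted) in Jnk2 KO, and 7.41, 7.91 and 8.20 in WT. Between the lowest double knockout and the highest of the 7 other NEMO-intact arrays lay a gap of 0.82, and both doubted arrays were on the upper side. Ctss rose without the doubted arrays by 1.32 (SE 0.23, limma adjusted p = 0.00416) against Jnk1 KO and 1.56 (SE 0.23, limma adjusted p = 0.00156) against Jnk2 KO in the matching double knockouts. Against WT it rose 2.72-fold in NEMO/Jnk1 DKO (limma adjusted p = 0.000933) and 3.27-fold in NEMO/Jnk2 DKO (limma adjusted p = 0.000186).

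Lyz2 (chromosome 10) encodes lysozyme M, the bactericidal enzyme of macrophages and neutrophils. Its levels were 9.60, 9.72 and 9.31 in NEMO/Jnk1 DKO and 10.10, 9.89 and 9.45 in NEMO/Jnk2 DKO. They were 9.86 (doubted), 8.53 and 8.38 in Jnk1 KO, 8.62, 8.05 and 10.15 (doubted) in Jnk2 KO, and 7.43, 8.54 and 8.53 in WT. The doubted Jnk2 KO array was the highest of all and WT replicate 1 the lowest. Lyz2 rose without the doubted arrays by 1.48 (SE 0.30, limma adjusted p = 0.0103) in NEMO/Jnk2 DKO against Jnk2 KO and differed by 1.09 (SE 0.30, limma adjusted p = 0.0545) in NEMO/Jnk1 DKO against Jnk1 KO. WT replicate 1 was the lowest of all 15 arrays for 6 of the 9 markers. Leaving it out as well brought the median difference from WT to 0.88 for NEMO/Jnk1 DKO and 0.97 for NEMO/Jnk2 DKO, with 6 of 9 markers called in each (background 2.99% and 4.04%).

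The lysosome holds many further proteases and their inhibitors. Of 12 measured cathepsin and cystatin genes, 0 passed as labelled on either background; without the doubted arrays 2 rose on the Jnk1-null and 4 on the Jnk2-null background. The protease gene Ctsd was among them on both, with 0.60 (limma adjusted p = 0.00291) in NEMO/Jnk1 DKO against Jnk1 KO and 0.63 (limma adjusted p = 0.00239) in NEMO/Jnk2 DKO against Jnk2 KO. Of 11 measured transcription factor genes of macrophages, 0 passed as labelled on either background. With them left out, 3 rose and 1 fell on the Jnk1-null background, with Spi1 (0.90, limma adjusted p = 0.0153), which encodes PU.1, and Zeb2 (0.79, limma adjusted p = 0.0218) as the 2 largest. On the Jnk2-null background 2 rose, Id3 (1.27, limma adjusted p = 0.00307), a factor Kupffer cells need, and Zeb2 (0.71, limma adjusted p = 0.0345). Cebpb, which encodes C/EBP-beta and is also made by hepatocytes, fell there by 0.93 (limma adjusted p = 0.0324).

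**Figure D2:**
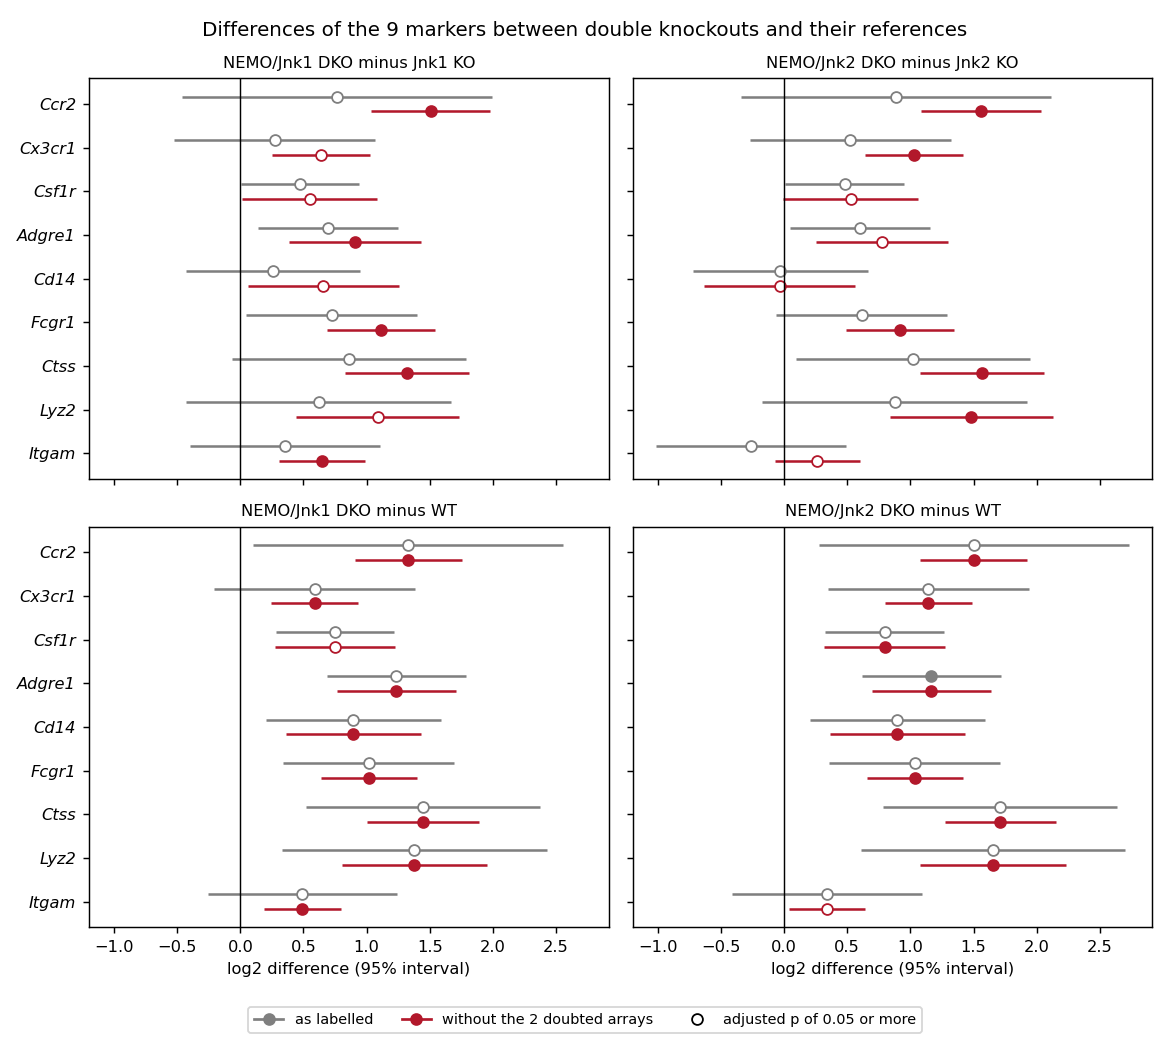
Log2 differences of the 9 markers (horizontal axes, points with 95% intervals) in 4 comparisons of a double knockout with its single knockout or WT. Grey shows the fit as labelled and red the fit without the 2 doubted arrays, and filled points have an adjusted p under 0.05. Only Adgre1 against WT in NEMO/Jnk2 DKO is filled in grey, against 5, 5, 8 and 8 filled points in red.

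The groups can also be compared by overlap of their arrays. Without the doubted arrays, 9 of 9 markers had all NEMO/Jnk1 DKO arrays above both Jnk1 KO arrays, as 16.8% of all genes did. On the Jnk2-null background 6 of 9 had all NEMO/Jnk2 DKO arrays above both Jnk2 KO arrays, as 16.0% of all genes did; Csf1r, Adgre1 and Cd14 overlapped. As labelled, 0 of 9 did on the Jnk2-null background, as 5.28% of all genes did. For 6 markers (Ccr2, Cx3cr1, Fcgr1, Ctss, Lyz2 and Itgam) the 6 double knockouts lay above all 7 undoubted arrays with intact NEMO, as for 4.68% of all genes.

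Which kinase was missing made no difference that passed the test. Between NEMO/Jnk1 DKO and NEMO/Jnk2 DKO, 0 of 9 markers were called, against 0.105% of all genes in either direction as labelled and 0.321% without the doubted arrays. Cx3cr1 was the marker that came nearest, with means of 5.57 ± 0.15 and 6.12 ± 0.06 (SD, n = 3 each), a difference of -0.56 whose 95% interval without the doubted arrays ran from -0.90 to -0.21 (limma adjusted p = 0.279). For Ccr2 the interval of that difference ran from -0.60 to 0.25, for Adgre1 from -0.40 to 0.54 and for Ctss from -0.70 to 0.18. With high Xist as a term these differences moved down. Their median over the 9 markers was -0.56 as labelled and -0.32 without the doubted arrays, with 0 of 9 above 0 in each, against -0.05 and 2 of 9 without the term. As labelled, the term drew in part on the doubted Jnk1 KO array, set against Jnk1 KO replicates 2 and 3. The -0.56 therefore cannot tell sex from whatever else sets that array apart. Without the doubted arrays, the term brought Ccr2 to -0.72 and Cx3cr1 to -0.73. Those values, like the median of -0.32, compare NEMO/Jnk1 DKO replicate 3 alone with the NEMO/Jnk2 DKO arrays. Replicate 3 was the lowest of its group for all 9 markers and the least clear of the Jnk1-null arrays by Mapk8. A fit that rests on 1 array of a group cannot tell an effect of the missing kinase from the level of that array. In that fit 0 markers were called, against 0.0903% of all genes. The difference between the 2 effects of NEMO loss was called for 0 markers, with 0% of all genes called as labelled and 0.0100% without the doubted arrays. Its widest value was that of Cd14, 0.69 with a 95% interval from -0.16 to 1.53 (limma adjusted p = 0.822).

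The single knockouts did not separate from WT by this test, with 3 arrays a group or 2 without the doubted one. As labelled, all 9 markers had higher means than in WT, with a median difference of 0.54 in Jnk1 KO and 0.61 in Jnk2 KO. Without the doubted arrays the medians were 0.12, with 5 of 9 above 0, and 0.15, with 8 of 9 above 0. In Jnk1 KO against WT 0 markers were called, with 0.0100% of all genes called as labelled and 0.0150% without the doubted array. The Jnk1 KO arrays lay above all WT arrays for 1 marker, Adgre1, as for 2.45% of all genes. In Jnk2 KO against WT 0 markers were called, with 0.411% and 1.24% of all genes called as labelled and without the doubted array. The Jnk2 KO arrays lay above all WT arrays for 1 marker, Cd14, as for 6.16% of all genes. Its mean was 4.83 ± 0.30 in Jnk2 KO and 3.91 ± 0.49 in WT (SD, n = 3 each), a difference of 0.93 (SE 0.32, limma adjusted p = 0.25, or 0.137 without the doubted array). Between Jnk1 KO and Jnk2 KO 0 markers were called, with 0.130% and 0.597% of all genes called.

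The mean level of the genes of resident Kupffer cells overlapped between the double knockouts and the other livers. The mean of 10 Kupffer genes, each centred on its own mean, ranged from -0.18 to 0.51 in the double knockouts and from -0.52 to 0.18 in the undoubted NEMO-intact arrays. The mean of the 9 markers ranged from 0.14 to 0.64 in the double knockouts and from -0.92 to -0.37 in those arrays. The doubted Jnk1 KO array was at 0.04 for the Kupffer genes and 0.57 for the 9 markers, and the doubted Jnk2 KO array at -0.46 and 0.72. Of the 10 Kupffer genes 0 passed as labelled on either background. Without the doubted arrays Marco (2.33, limma adjusted p = 0.0107), a scavenger receptor, and Cd5l (1.08, limma adjusted p = 0.0348) rose in NEMO/Jnk1 DKO against Jnk1 KO. Cd163, the haemoglobin scavenger receptor, fell by 1.27 (limma adjusted p = 0.00493) there and by 2.78 (limma adjusted p = 2.56e-05) in NEMO/Jnk2 DKO against Jnk2 KO, the only one of the 10 to pass on that background. Against WT, 5 of the 10 rose in NEMO/Jnk1 DKO and 3 of the 10 in NEMO/Jnk2 DKO without the doubted arrays, while Cd163 fell in both, by 1.35 (limma adjusted p = 0.00131) and 2.08 (limma adjusted p = 5.06e-05). The median of the list against WT was 0.70 for the first genotype, NEMO/Jnk1 DKO, and 0.31 for NEMO/Jnk2 DKO. Marco rose there by 2.06 (limma adjusted p = 0.00885) and 1.77 (limma adjusted p = 0.0154), and Cd5l by 1.25 (limma adjusted p = 0.00611) and 1.08 (limma adjusted p = 0.0109). As labelled, 0 of the 10 passed in NEMO/Jnk1 DKO against WT and 1, Il18bp (0.67, limma adjusted p = 0.0473), rose in NEMO/Jnk2 DKO. Clec4f averaged 8.40 in NEMO/Jnk1 DKO, 8.00 in NEMO/Jnk2 DKO, 7.95 in Jnk1 KO, 7.61 in Jnk2 KO and 7.64 in WT.

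Macrophages of scarred tissue have genes of their own, and most of these moved with the markers. As labelled, 7 of 9 were higher in NEMO/Jnk1 DKO than in Jnk1 KO, and 8 of 9 in NEMO/Jnk2 DKO than in Jnk2 KO. Fabp5 was lower in both, with means of 7.57 against 7.66 and 7.55 against 8.16. Trem2 was the other gene not higher in NEMO/Jnk1 DKO, with a mean of 4.92 there and in Jnk1 KO. On the Jnk2-null background its means were 5.30 in NEMO/Jnk2 DKO and 4.76 in Jnk2 KO. Of 9 measured genes of scar-associated macrophages, 0 passed as labelled on either background, and 6 rose on the Jnk1-null and 7 on the Jnk2-null background without the doubted arrays. Mmp12, the macrophage elastase, rose by 4.44 (limma adjusted p = 2.82e-05) and 4.31 (limma adjusted p = 2.41e-05), and Gpnmb, a lysosomal glycoprotein gene, by 2.50 (limma adjusted p = 2.13e-05) and 2.79 (limma adjusted p = 7.27e-06) on the Jnk1-null and Jnk2-null backgrounds. Mmp12 was also among the genes that showed the doubted arrays (8.66 and 8.20 in them). These 2 tests, like the others without the doubted arrays, are therefore not independent of the choice of arrays. As labelled, Cd9 (1.54, limma adjusted p = 0.0318) was the only one of the 9 to rise in NEMO/Jnk2 DKO against WT. Of 8 measured monocyte genes, 0 passed as labelled on either background, and 2 rose in NEMO/Jnk2 DKO against WT, Plac8 (1.76, limma adjusted p = 0.0424) and Treml4 (1.00, limma adjusted p = 0.0204). Without the doubted arrays Plac8, a gene of inflammatory monocytes, rose by 1.47 (limma adjusted p = 0.00454) on the Jnk1-null and by 1.14 (limma adjusted p = 0.0191) on the Jnk2-null background, and Treml4 by 0.95 (limma adjusted p = 0.0107) on the Jnk1-null background.

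Genes of other cells in the liver also moved with the markers, and their part in the differences was not tested. Of 8 pan-leukocyte genes 6 rose on the Jnk1-null and 7 on the Jnk2-null background without the doubted arrays, among them Cd52 (1.52 and 1.58, limma adjusted p = 0.00192 and 0.00161). Of 8 stellate cell and collagen genes 5 and 4 rose, with Col1a1 at 2.13 and 2.29 (limma adjusted p = 0.000297 and 0.000162). The mean of the stellate list ranged from 0.26 to 0.67 in the double knockouts and from -0.85 to -0.44 in the undoubted NEMO-intact arrays. As labelled, 0 genes of either list passed on either background, and Vav1 (1.201, limma adjusted p = 0.0468), a pan-leukocyte gene, rose in NEMO/Jnk2 DKO against WT.

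Neutrophils carry Itgam, Lyz2 and Cd14 too. Of 12 neutrophil genes 0 passed against the single knockouts in either version. Against WT without the doubted arrays 0 passed in NEMO/Jnk1 DKO and 2 rose in NEMO/Jnk2 DKO, S100a8 (0.67, limma adjusted p = 0.0266) and Retnlg (0.54, limma adjusted p = 0.0473). The list ranged from -0.13 to 0.32 in the double knockouts and from -0.21 to 0.14 in the undoubted NEMO-intact arrays. The defining genes were at the low end of the arrays' scale in every group, with Ly6g at 2.92 in NEMO/Jnk1 DKO, 2.90 in NEMO/Jnk2 DKO, 3.10 in Jnk1 KO, 3.11 in Jnk2 KO and 2.90 in WT. Of 10 T and NK cell genes 0 rose on the Jnk1-null and 1, Cd3g (0.87, limma adjusted p = 0.0263), on the Jnk2-null background without the doubted arrays. Of 8 dendritic cell genes 1, Cd209a (0.51, limma adjusted p = 0.0248), rose on the Jnk1-null and 0 on the Jnk2-null background. Of 5 B cell and 8 endothelial genes 0 passed against the single knockouts. Of 8 hepatocyte genes 0 passed on the Jnk1-null background and 1, Tat (-0.65, limma adjusted p = 0.0368), fell on the Jnk2-null background. The hepatocyte list ranged from -0.14 to 0.02 in the double knockouts and from -0.01 to 0.16 in the undoubted NEMO-intact arrays.

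**Figure D3:**
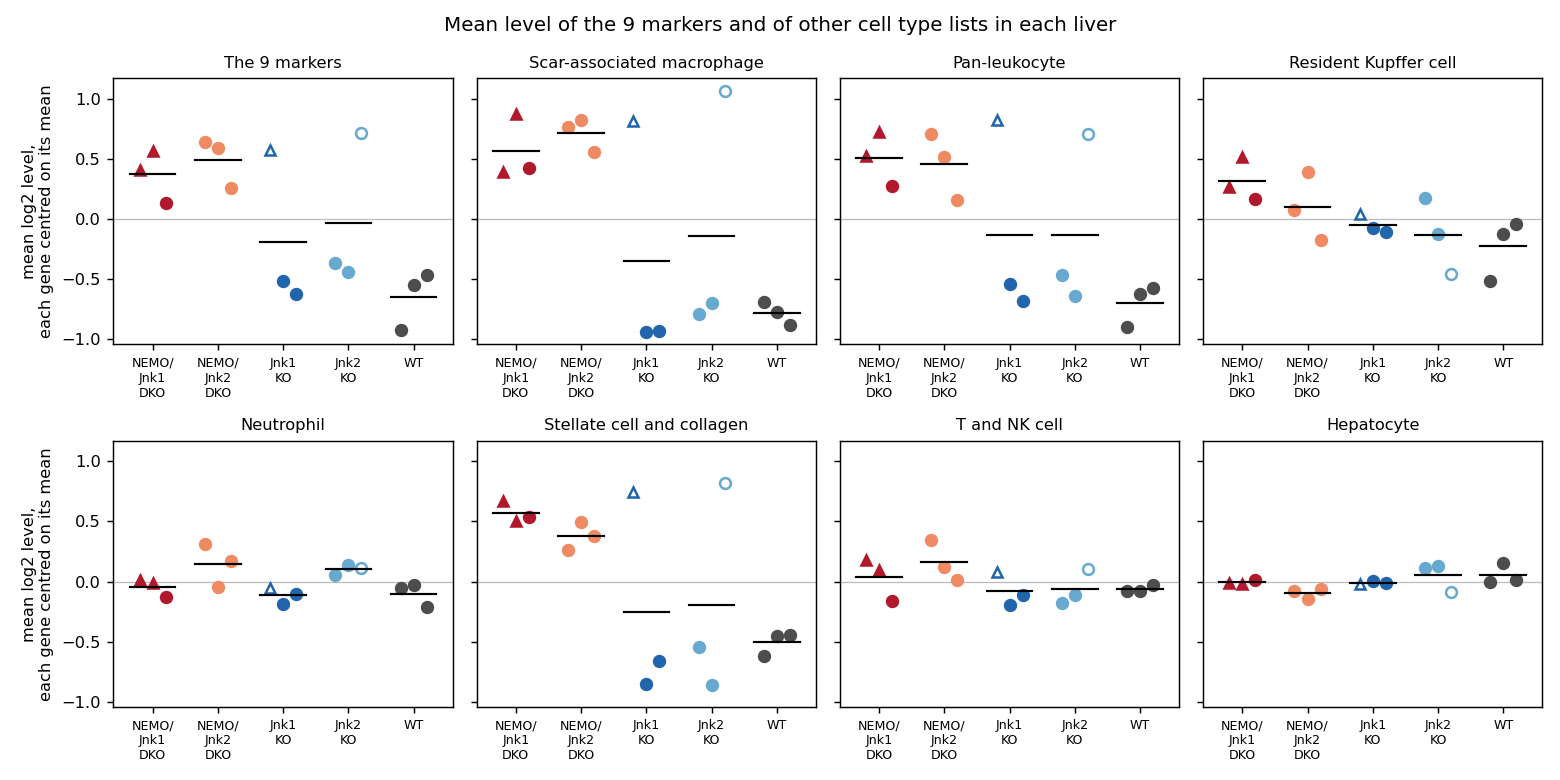
Mean log2 level of the 9 markers and of 7 cell type lists (vertical axes, each gene centred on its mean over 15 arrays) in each liver, by genotype (horizontal axes). Points are arrays, black bars group means, open points the 2 doubted arrays and triangles the arrays with high Xist. The 9 markers, the scar-associated, pan-leukocyte and stellate lists separate the double knockouts from the filled NEMO-intact points, while the Kupffer, neutrophil, T and NK cell and hepatocyte lists overlap.

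The markers differed in how alike they were over the 15 arrays. The arrays fall into a high and a low set, so a correlation mostly restates that division and is given as a description. Over the 36 pairs of markers Pearson's r ranged from 0.34 (Itgam with Csf1r) to 0.98 (Lyz2 with Ctss), with a median of 0.76. Csf1r and Adgre1 were most alike each other (0.95) and followed the mean of the Kupffer list (0.80 and 0.73). Cx3cr1 and Itgam did not (0.01 and -0.03), and Ccr2 lay between (0.29). With Mmp12 the values were 0.94 for Ccr2, 0.92 for Ctss and for Fcgr1, 0.87 for Lyz2, 0.84 for Cx3cr1, 0.82 for Adgre1, 0.69 for Itgam, 0.67 for Csf1r and 0.57 for Cd14. Cd14 was the least alike the rest, with 0.69 against the mean of the other 8.

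**Figure D4:**
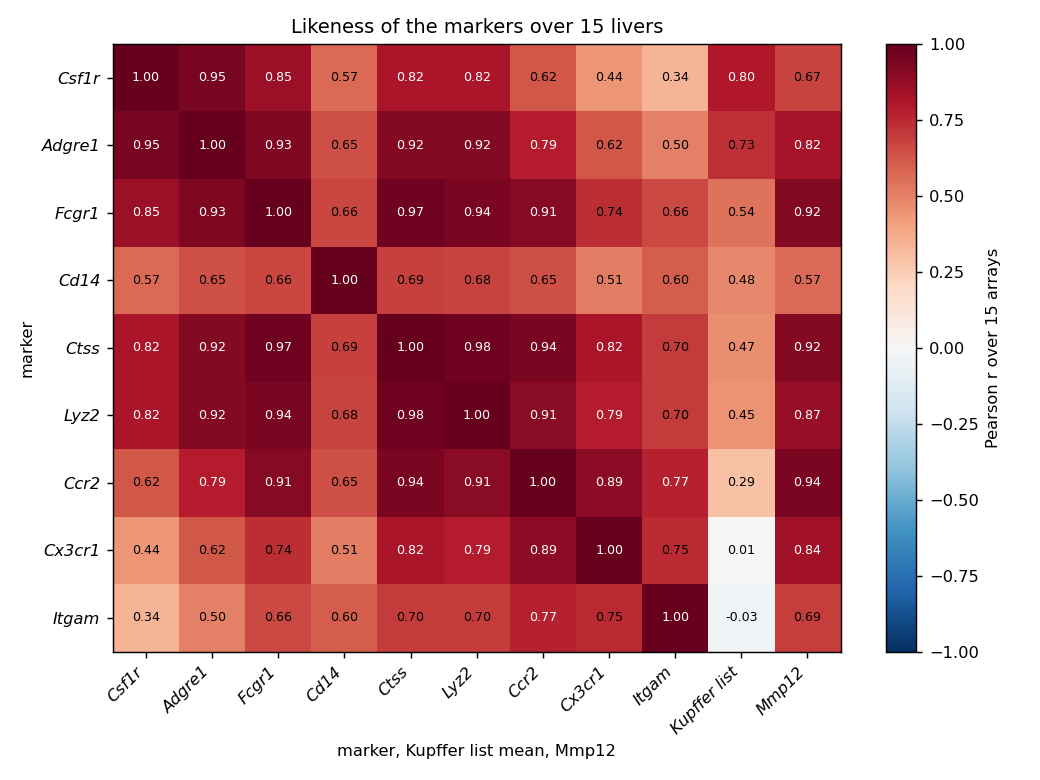
Pearson's r over 15 arrays between the 9 markers (rows and the first 9 columns), and with the mean of the Kupffer list and Mmp12 (last columns), ordered by likeness to the Kupffer list. Red is positive and blue negative. Csf1r and Adgre1 at the top have 0.80 and 0.73 with the Kupffer list, and Cx3cr1 and Itgam at the bottom 0.01 and -0.03.

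Among all other genes, the 10 most like the mean of the 9 markers over the 15 arrays were Itgb2 (r = 0.99), Myo1f, Fcer1g, Nckap1l, Laptm5, Cd53, Iqgap1, Sh3bgrl3, Cybb and Ptprc (r = 0.98). Taken marker by marker, Adgre1 was nearest to C1qc and C1qa (0.98 and 0.97), genes of the complement component that macrophages secrete. Fcgr1 was nearest to Cybb (0.98), a subunit gene of the phagocyte oxidase, and Cd14 to Hmox1 (0.91), the gene of haem oxygenase. Ccr2 was nearest to Tmsb10 (0.98), Cx3cr1 to Emp1 (0.96), Csf1r to Adgre1 (0.95), Ctss and Lyz2 to Nckap1l (0.98 each) and Itgam to Sytl2 (0.94).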

How the data were processed

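Values deposited by the authors are RMA output (per the submitters' processing notes, without a version) and were taken as log2 from their range. Of 35556 probe sets, 21789 had 1 gene symbol in the platform's gene table, and the one with the highest mean stood for each of 19938 genes. The 9 markers, the 18 gene lists (151 of 159 genes measured) and the tests were chosen with earlier results of these data known. From each list up to 3 genes past the threshold with the largest difference were named, or the 2 with the lowest p. Comparisons used the moderated test of limma 3.58.1 (R 4.3.3), fitted to the 15 arrays together with a mean for each group (10 residual and 3.75 prior degrees of freedom), adjusted over all genes. The version without the doubted arrays had 8 residual and 5.05 prior degrees of freedom. Replicate numbers did not pair the arrays. The procedure was tested on simulated data. Positions and promoters are RefSeq's. Other settings are given with the closing results. The number of arrays limits the precision. Figures used Python 3.11.15 and matplotlib 3.10.9.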

Additional observations from a re-analysis of the deposited data

How the results depend on the processing

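The counts of called markers depended mostly on the 2 doubted arrays. In NEMO/Jnk1 DKO against Jnk1 KO (0 as labelled) the count was 5 without them. It was 7 without WT replicate 1 as well, a setting chosen after seeing the data. With a sex term added to the fit without the doubted arrays, NEMO/Jnk1 DKO rests on replicate 3 alone. No count of NEMO/Jnk1 DKO against Jnk1 KO or WT is therefore given for that fit. The calls in these comparisons were not shown to hold with the term. In NEMO/Jnk2 DKO against Jnk2 KO (0 as labelled) the count was 5 in each of these settings. In NEMO/Jnk1 DKO against WT (0 as labelled) it was 8 without the doubted arrays, 6 without WT replicate 1 as well, 6 with array weights and 6 from only the arrays compared, and 0 to 3 with 1 array left out, 3 of them without the doubted Jnk1 KO array. In NEMO/Jnk2 DKO against WT (1 as labelled) it was 8 without the doubted arrays, with or without a sex term, and 6 without WT replicate 1 as well. It was 7 with array weights, 7 from only the arrays compared, 2 after a filter on dim genes, 4 with a sex term, 4 without the arrays of high Xist, and 0 to 8 with 1 array left out. With the replicate number as a block it was 0; of 30 pairs of arrays with the same number 4 correlated above 0.1 (range -0.39 to 0.30), so the numbers do not pair the arrays, and the block turned no other count of called markers. The counts over all genes moved with these settings. For NEMO/Jnk2 DKO against WT, of 19938 genes 525 were called as labelled, 2116 without the doubted arrays, 2095 with a sex term as well, 1543 without WT replicate 1 as well, 1813 with array weights, 1919 from only the arrays compared, 1035 with a sex term, 1171 without the arrays of high Xist and 263 with the block, and 659 of 12589 after the dim filter. For NEMO/Jnk1 DKO against WT, 13 were called as labelled and 985 to 1578 in the settings that called 6 or 8 markers. The sign turned for Cd14 in NEMO/Jnk1 DKO against Jnk1 KO with a sex term that drew on the doubted Jnk1 KO array (-0.018). In NEMO/Jnk2 DKO against Jnk2 KO it turned for Itgam (0.26) without the doubted arrays, also with a sex term or without WT replicate 1, and without Jnk2 KO replicate 3 (range over arrays left out -0.59 to 0.26). There it also turned for Cd14 without Jnk2 KO replicate 2 (0.12) or without NEMO/Jnk2 DKO replicate 2 (0.011; range -0.18 to 0.12). Over the 4 comparisons with NEMO loss, 925 of 1044 refits of single markers kept the direction and side of the threshold, 106 passed where the first fit did not, 6 lost the call and 7 changed sign. In the other 5 comparisons 0 of 1305 refits called a marker, and 107 changed sign. For the double knockouts against WT, leaving out the doubted arrays changed the estimate of spread and not the differences. Apart from this and the construction of each setting, the cause was not tested. All 9 markers passed the dim filter, but Ccr2, Itgam and Cd14 had mean levels below the median gene (percentiles 38.5, 43.1 and 47.0).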
